A study of Mus musculus with 10 samples.

Results

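The genes described here are those of the PD-1 and CTLA4 axis, the receptors that the antibodies given in the study block, together with their B7 ligands and their CD28 relatives. The 9 members were taken by symbol from the 27919 genes of the expression table: the receptor genes Pdcd1 (PD-1), Ctla4, Cd28 and Icos, and the ligand genes Cd274 (PD-L1), Pdcd1lg2 (PD-L2), Cd80, Cd86 and Icosl. They were measured in tumors of B16F10, a mouse melanoma line, carrying either an Ly86 overexpression construct (4 tumors, 5 libraries) or the vector (3 tumors, 5 libraries). All mice of both groups had received 4 rounds of anti-PD-1 plus anti-CTLA4, and no tumor without the antibodies was analysed here, so the levels below are those under treatment. Strain, age and sex of the mice, and whether each line was 1 clone, are not given in the sources used here. The labels mark 2 pieces each of Ly86 tumor 1, Vector tumor 1 and Vector tumor 2, and the pieces of a tumor were averaged and counted as 1 replicate.

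CD28 on a T cell binds CD80 or CD86 on an antigen-presenting cell and gives the second signal that a T cell needs beside its antigen receptor. CTLA4 binds the same ligands with higher affinity and withholds that signal. ICOS, an inducible relative of CD28, binds its own ligand, encoded by Icosl. PD-1 appears on activated T cells and, when bound by PD-L1 or PD-L2, dampens signaling from the antigen receptor and from CD28. PD-L1 is carried by tumor cells, myeloid cells and other cells and is induced by interferon gamma, whereas PD-L2, CD80 and CD86 are found mainly on macrophages, dendritic cells and B cells. All measurements here are of mRNA in whole tumors. In such bulk samples, fewer cells of a type and less RNA per cell cannot be told apart.

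Several members are neighbours in the genome. In RefSeq's order of protein-coding genes (GRCm38.p6), Ctla4 lies between Cd28 and Icos on chromosome 1, and Cd274 lies next to Pdcd1lg2 on chromosome 19. Promoters of 6 of the 9 members were in the RefSeq table of that build, those of Pdcd1, Ctla4, Cd274, Pdcd1lg2, Cd80 and Icosl. The 250 bases before the start are shown for the targets of the antibodies and the ligands of PD-1, read on the strand of the gene, with capitals marking a GC box (GGGCGG) or a pair of IRF half-sites on the opposite strand.
Pdcd1, chr1:94052554-94052803 (- strand): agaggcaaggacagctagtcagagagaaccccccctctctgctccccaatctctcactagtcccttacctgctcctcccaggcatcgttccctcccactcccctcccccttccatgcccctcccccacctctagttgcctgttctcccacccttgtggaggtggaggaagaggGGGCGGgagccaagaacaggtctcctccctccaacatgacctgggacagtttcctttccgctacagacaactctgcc
Ctla4, chr1:60908775-60909024 (+ strand): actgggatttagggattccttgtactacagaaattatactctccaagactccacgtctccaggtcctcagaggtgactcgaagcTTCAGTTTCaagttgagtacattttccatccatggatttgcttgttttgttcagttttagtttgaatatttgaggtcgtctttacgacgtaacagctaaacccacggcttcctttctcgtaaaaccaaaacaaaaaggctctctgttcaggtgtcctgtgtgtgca
Cd274, chr19:29367188-29367437 (+ strand): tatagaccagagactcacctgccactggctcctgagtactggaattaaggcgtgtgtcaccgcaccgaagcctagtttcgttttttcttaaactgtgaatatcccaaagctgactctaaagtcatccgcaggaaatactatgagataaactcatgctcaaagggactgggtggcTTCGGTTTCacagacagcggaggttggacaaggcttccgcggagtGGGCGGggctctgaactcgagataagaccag
Pdcd1lg2, chr19:29410669-29410918 (+ strand): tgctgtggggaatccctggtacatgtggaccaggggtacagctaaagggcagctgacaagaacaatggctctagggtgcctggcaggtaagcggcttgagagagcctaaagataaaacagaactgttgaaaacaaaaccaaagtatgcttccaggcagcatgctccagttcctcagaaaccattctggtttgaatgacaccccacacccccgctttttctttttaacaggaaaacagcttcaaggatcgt
The search covered both strands for a GAS site (TTCNNNGAA), a pair of IRF half-sites (GAAANNGAA), an AP-1 site (TGAGTCA), the TATA box (TATAAA) and the GC box. The GC box was present in Pdcd1, Cd274 and Icosl, and in 32.7% of all 32851 promoters in the table. The IRF pair, known as a landing site of interferon regulatory factors, was present on the opposite strand of Cd274, 76 to 68 bases before its start, and of Ctla4, 166 to 158 bases before its start, and in 7.13% of promoters. A longer form of it with a further A at the end was searched first and was in none of the 6 windows, and in 2.98% of promoters. A looser AP-1 form with any base in the middle, also searched first, was present in Cd80 and in 6.75% of promoters. The GAS, AP-1 and TATA letters, present in 7.02%, 4.46% and 12.4% of promoters, were in none of the 6 windows.

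Values were log2(TPM + 1), where TPM is transcripts per 1000000 of a library and takes transcript length into account. The melanocyte gene Mlana stood between 1133 and 1747 TPM in the Ly86 libraries and between 833 and 1444 TPM in the Vector libraries. Ly86 itself held 49.2 to 81.9 TPM in Ly86 libraries and 6.24 to 80.9 TPM in Vector libraries, where the first piece of Vector tumor 2 was the highest. Over tumors Ly86 differed by 1.69 on the log2 scale (SE 0.40, limma adjusted p = 0.437, exact permutation p = 0.0286, the smallest that 35 assignments allow). Ly86 from the construct and from the host's own cells cannot be told apart in these values. The first piece of Vector tumor 2 stood apart from its partner in T cell and macrophage genes as well. Its Cd3e and Csf1r, which mark T cells and macrophages, were 16.6 and 129 TPM in the first piece and 1.59 and 12.5 TPM in the second.

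The members differed widely in level, in the same broad order in both groups. Cd274 had the highest median over tumors, 63.9 TPM in Ly86 tumors and 35.6 TPM in Vector tumors, and exceeded Cd86, the next in Ly86 tumors, in 10 of 10 libraries. Medians in Ly86 and Vector tumors were 9.83 and 5.43 TPM for Cd86, 6.71 and 3.70 TPM for Pdcd1, and 5.28 and 5.59 TPM for Icosl. For the lower members, medians in Ly86 and Vector tumors were 3.67 and 1.51 TPM for Pdcd1lg2, 1.93 and 0.82 TPM for Ctla4, 1.64 and 1.71 TPM for Cd80, 1.31 and 0.63 TPM for Icos, and 1.26 and 0.59 TPM for Cd28. Below Cd274, neighbours in this order kept it in between 4 and 8 of the 10 libraries, so adjacent levels were not separated beyond their spread. All 9 members passed the filter of a mean of at least 1 TPM over the tumors, Cd28 only narrowly at 1.09 TPM and Icos at 1.29 TPM.

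**Figure D1:**
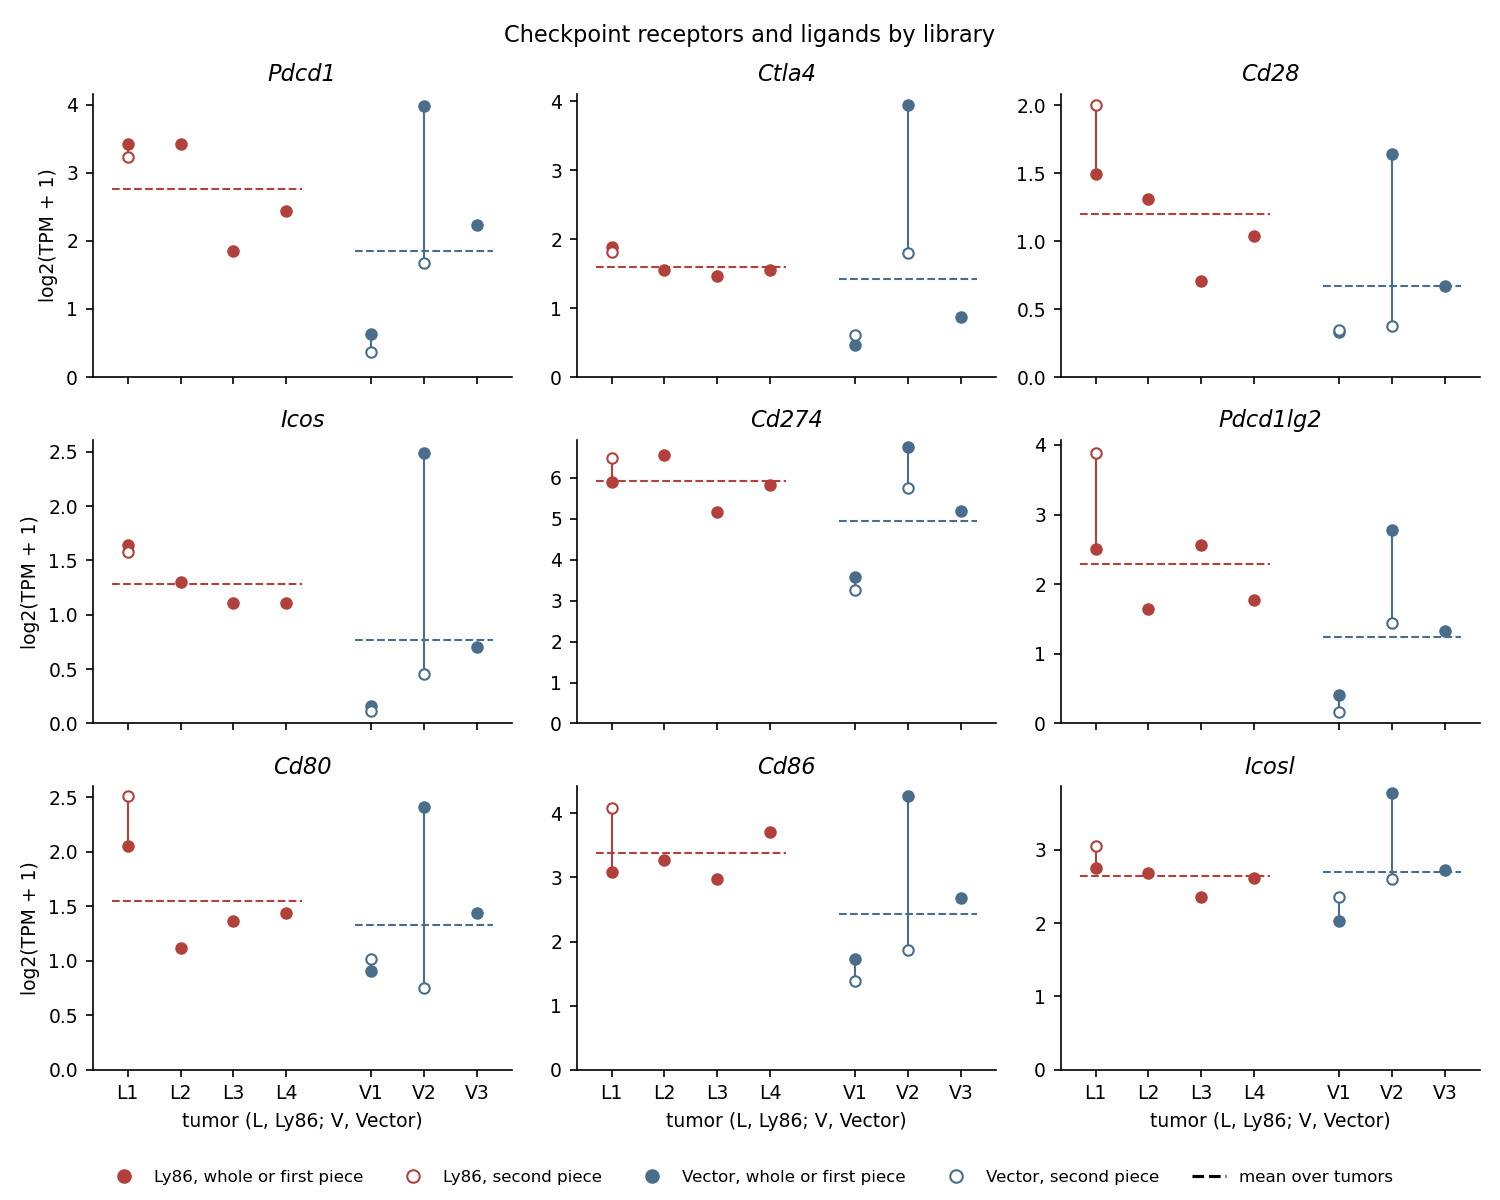
Each panel plots log2(TPM + 1) of 1 gene by tumor (L, Ly86; V, Vector), with a point for each library, a line joining the pieces of a divided tumor and a dashed line at the group mean over tumors. The pieces of Vector tumor 1 lie at the bottom of most panels, and the first piece of Vector tumor 2 is the highest library for 6 of the 9 genes.

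The first question was whether the axis differed between Ly86 and Vector tumors. By mean, 8 of the 9 members were higher in Ly86 tumors and 1, Icosl, was lower, where 43.8% of all 14556 tested genes were higher. Their median log2 difference was 0.53, beside -0.04 over all tested genes. In limma, 0 of 9 passed after adjustment over all genes, as did 0 of all genes (0%), and 1, Cd86, was higher with an unadjusted p under 0.05, where 5.78% of all genes were so (10.8% in either direction). The 4 Ly86 and 3 Vector tumors overlapped for every member, where 4.71% of all genes had every Ly86 tumor above every Vector tumor. Vector tumor 1 was the lowest of the 7 tumors for all 9 members. Without it, 7 of 9 were higher, with Ctla4 and Icosl lower. With only the first pieces of divided tumors 6 of 9 were higher, and log2 differences ranged from -0.24 to 0.69. If the first piece of Vector tumor 2 was left out, 7 of 7 tested members were higher, Cd28 and Icos then falling under the filter. The log2 differences were then 1.29 for Pdcd1, 0.54 for Ctla4, 1.15 for Cd274, 1.28 for Pdcd1lg2, 0.50 for Cd80, 1.35 for Cd86 and 0.13 for Icosl.

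**Figure D2:**
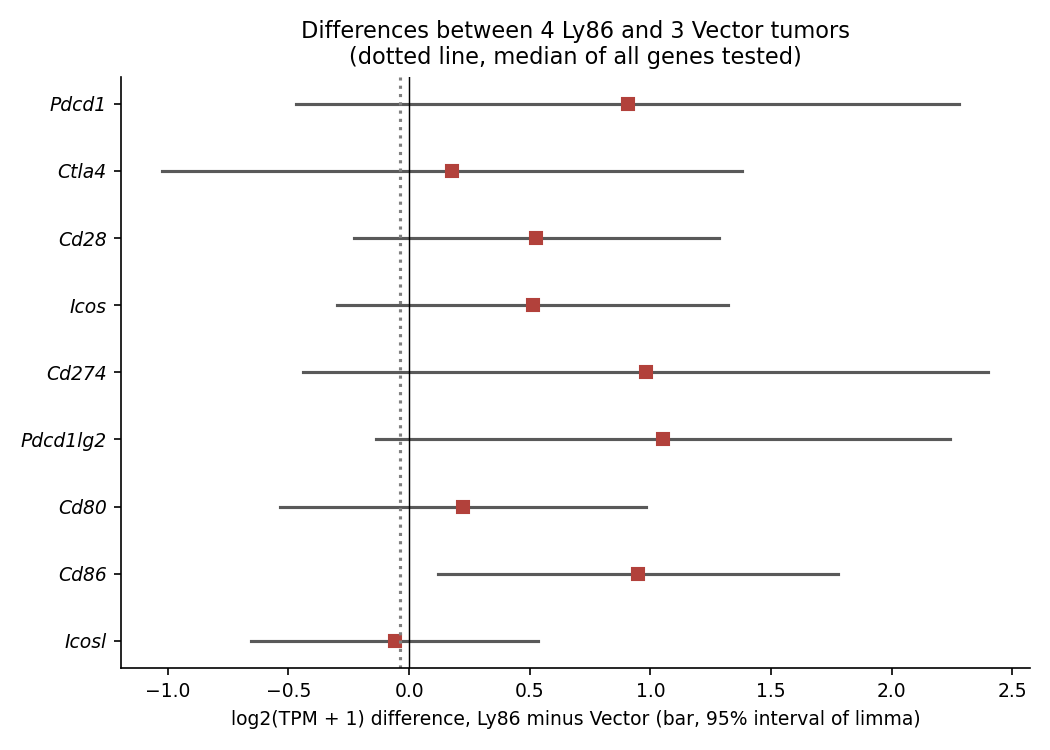
Squares mark the log2(TPM + 1) difference of each gene, Ly86 minus Vector, and bars its 95% interval in limma. The interval of Cd86, from 0.12 to 1.78, is the only one of the 9 that does not include 0, before any adjustment.

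Among the receptors, Pdcd1, the target of anti-PD-1, held 9.69 and 8.39 TPM in the pieces of Ly86 tumor 1 and 9.73, 2.62 and 4.40 TPM in Ly86 tumors 2, 3 and 4. In the Vector group it held 0.55 and 0.29 TPM in the pieces of tumor 1, 14.8 and 2.20 TPM in those of tumor 2 and 3.70 TPM in tumor 3. The highest and the lowest library were thus both from Vector tumors, and the groups overlapped. Pdcd1 averaged 2.76 ± 0.75 log2(TPM + 1) in the Ly86 group (SD, n = 4) and 1.85 ± 1.21 in the Vector group (SD, n = 3), a log2 difference of 0.91 (SE 0.60, 95% interval -0.47 to 2.28, limma adjusted p = 0.611). The difference was 0.23 without Vector tumor 1, 1.39 without Vector tumor 2 and 1.36 with a pseudocount of 0.1 in place of 1.

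Ctla4, the target of the other antibody, was even across the Ly86 libraries, with 2.68 and 2.53 TPM in the pieces of tumor 1 and 1.93, 1.75 and 1.93 TPM in tumors 2, 3 and 4. In the Vector libraries it held 0.38 and 0.53 TPM in the pieces of tumor 1, 14.3 and 2.48 TPM in those of tumor 2 and 0.82 TPM in tumor 3. A single library, the first piece of Vector tumor 2, therefore lay well above all 9 others. The tumor means were 1.60 ± 0.17 log2(TPM + 1) in the Ly86 group (SD, n = 4) and 1.42 ± 1.26 in the Vector group (SD, n = 3), an SD 7.41 times as large in the Vector group. The log2 difference was 0.18 (SE 0.52, 95% interval -1.02 to 1.38, limma adjusted p = 0.938). It was -0.26 without Vector tumor 1, -0.10 without Vector tumor 3, 0.90 without Vector tumor 2, 0.54 without the first piece of that tumor and 0.55 with a pseudocount of 0.1. Foxp3, which defines regulatory T cells, cells that carry much CTLA4, held 1.74 TPM in that first piece, 0.57 to 1.27 TPM in Ly86 libraries and 0.09 to 1.23 TPM in the other Vector libraries; its part in the Ctla4 values was not tested.

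Cd28, the activating receptor for the B7 proteins, had the lowest median of the members. It held 1.82 and 3.01 TPM in the pieces of Ly86 tumor 1 and 1.48, 0.63 and 1.05 TPM in Ly86 tumors 2, 3 and 4, against 0.26 and 0.27 TPM in the pieces of Vector tumor 1, 2.12 and 0.30 TPM in those of Vector tumor 2 and 0.59 TPM in Vector tumor 3. Of the 5 Vector libraries, 4 lay below every Ly86 library, pieces counted separately, but by tumor the groups overlapped. Averaged by tumor, the log2 difference was 0.53 (SE 0.33, 95% interval -0.23 to 1.28, limma adjusted p = 0.591). It was 0.26 with only the first pieces of divided tumors and 0.80 with only the second.

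Icos, which rises on T cells after activation, showed a similar layout. It held 2.13 and 1.99 TPM in the pieces of Ly86 tumor 1 and 1.46, 1.16 and 1.16 TPM in the other Ly86 tumors, against 0.12 and 0.08 TPM in the pieces of Vector tumor 1, 4.62 and 0.37 TPM in those of Vector tumor 2 and 0.63 TPM in Vector tumor 3. Again 4 of 5 Vector libraries were below every Ly86 library and the other was above them all. Pieces are counted separately here, and by tumor the groups overlapped. The log2 difference was 0.51 (SE 0.35, 95% interval -0.30 to 1.32, limma adjusted p = 0.625), 0.19 without Vector tumor 1 and 0.86 without Vector tumor 2. Both genes lie near 1 TPM, where the added pseudocount of 1 compresses differences. With a pseudocount of 0.1 the log2 differences were 1.12 for Cd28 and 1.34 for Icos, with limma adjusted p of 0.516 and 0.503.

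Among the ligands, Cd274 was by far the most abundant. It held 58.7 and 87.8 TPM in the pieces of Ly86 tumor 1 and 92.5, 34.7 and 56.0 TPM in Ly86 tumors 2, 3 and 4. The Vector libraries held 10.9 and 8.52 TPM in the pieces of tumor 1, 106.8 and 52.5 TPM in those of tumor 2 and 35.6 TPM in tumor 3. Only Vector tumor 1 lay below the Ly86 range. The tumor means were 5.93 ± 0.59 log2(TPM + 1) in the Ly86 group (SD, n = 4) and 4.95 ± 1.43 in the Vector group (SD, n = 3), a log2 difference of 0.98 (SE 0.62, 95% interval -0.44 to 2.40, limma adjusted p = 0.594). Without Vector tumor 1 it was 0.21, and without Vector tumor 2 it was 1.63. Ifng, the gene of interferon gamma, was low in the same tumor. It held 0.00 and 0.09 TPM in the pieces of Vector tumor 1, beside 2.35 to 5.92 TPM in Ly86 libraries and 2.13 to 6.30 TPM in the other Vector libraries. Its part in the Cd274 values was not tested.

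Pdcd1lg2, the second ligand of PD-1, had the largest difference of the members. It held 4.68 and 13.8 TPM in the pieces of Ly86 tumor 1 and 2.13, 4.93 and 2.40 TPM in Ly86 tumors 2, 3 and 4, against 0.33 and 0.12 TPM in the pieces of Vector tumor 1, 5.88 and 1.71 TPM in those of Vector tumor 2 and 1.51 TPM in Vector tumor 3. Of the Vector libraries, pieces counted separately, 4 lay below every Ly86 library and 1 within their range, but by tumor the groups overlapped. The tumor means were 2.29 ± 0.73 log2(TPM + 1) in the Ly86 group (SD, n = 4) and 1.24 ± 0.91 in the Vector group (SD, n = 3). The log2 difference was 1.05 (SE 0.52, 95% interval -0.14 to 2.24, limma adjusted p = 0.502), 0.57 without Vector tumor 1 and 1.72 with a pseudocount of 0.1.

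Cd86, which with CD80 serves both CD28 and CTLA4, came closest to separating the groups. It held 7.51 and 15.9 TPM in the pieces of Ly86 tumor 1 and 8.68, 6.90 and 12.1 TPM in Ly86 tumors 2, 3 and 4, against 2.31 and 1.61 TPM in the pieces of Vector tumor 1, 18.4 and 2.65 TPM in those of Vector tumor 2 and 5.43 TPM in Vector tumor 3. Every Vector library but the first piece of tumor 2, which was the highest of all, lay below every Ly86 library. The tumor means were 3.39 ± 0.33 log2(TPM + 1) in the Ly86 group (SD, n = 4) and 2.44 ± 0.79 in the Vector group (SD, n = 3), a log2 difference of 0.95 (SE 0.36, limma unadjusted p = 0.0299, adjusted p = 0.449). Ly86 tumor 3, at 2.98, lay just below Vector tumor 2, at 3.07, and the two-sided exact permutation p over the 35 assignments of the tumors was 0.0571, where 0.0286 is the smallest they can give. The difference was 0.51 without Vector tumor 1, 1.53 with only the second pieces and 0.37 with only the first. Array weights in limma, which came to 22.8 for Vector tumor 3 and under 1 for the others, gave 0.79 with an adjusted p of 0.047.

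Cd80, the other ligand of CD28 and CTLA4, was high in Ly86 tumor 1 and in the first piece of Vector tumor 2. It held 3.15 and 4.70 TPM in the pieces of Ly86 tumor 1 but 1.17, 1.57 and 1.70 TPM in Ly86 tumors 2, 3 and 4, against 0.87 and 1.02 TPM in the pieces of Vector tumor 1, 4.30 and 0.68 TPM in those of Vector tumor 2 and 1.71 TPM in Vector tumor 3. The log2 difference was 0.22 (SE 0.33, 95% interval -0.53 to 0.98, limma adjusted p = 0.845), -0.02 without Ly86 tumor 1, 0.50 if the first piece of Vector tumor 2 was left out and 0.54 with only the second pieces. Cd86 exceeded Cd80 by 1.84 ± 0.46 log2 units in the Ly86 group (SD, n = 4) and 1.11 ± 0.46 in the Vector group (SD, n = 3). This gap was 0.72 wider in Ly86 tumors, with an exact permutation p of 0.114 and 0.310 after Benjamini-Hochberg adjustment over the 13 relative levels tested. The libraries with high Cd80 also had the highest Krt5, a keratinocyte gene. Krt5 held 473 and 55.4 TPM in the pieces of Ly86 tumor 1 and 162 TPM in the first piece of Vector tumor 2. In the other libraries it held 0.0 to 17.2 TPM, and the part of skin cells in the Cd80 values was not tested.

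Icosl, the ligand of ICOS, was the most even member. Its libraries held 5.75 and 7.26 TPM in the pieces of Ly86 tumor 1 and 5.42, 4.13 and 5.14 TPM in Ly86 tumors 2, 3 and 4, against 3.08 and 4.11 TPM in the pieces of Vector tumor 1, 12.7 and 5.08 TPM in those of Vector tumor 2 and 5.59 TPM in Vector tumor 3. The tumors spanned 1.00 log2 unit, the smallest range of the 9 members, beside 3.14 for Cd274. The log2 difference was -0.06 (SE 0.26, 95% interval -0.66 to 0.53, limma adjusted p = 0.961). It was 0.18 without Vector tumor 2, 0.13 without the first piece of that tumor and 0.03 without Ly86 tumor 3.

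The next comparison set each member against markers of cells that carry it. The T cell level was the mean log2(TPM + 1) of the CD3 subunit genes Cd3d, Cd3e, Cd3g and Cd247. It was 2.97 ± 0.49 in the Ly86 group (SD, n = 4) and 1.81 ± 0.98 in the Vector group (SD, n = 3), a difference of 1.16 (exact permutation p = 0.0857). The macrophage level, the mean of Csf1r, Adgre1, Cd68, Fcgr1 and Mertk, was 5.54 ± 0.31 in the Ly86 group (SD, n = 4) and 4.48 ± 0.96 in the Vector group (SD, n = 3), a difference of 1.06 (exact permutation p = 0.0286, the smallest that 35 assignments allow). Vector tumor 1 had the lowest value of both, 0.70 for T cells and 3.37 for macrophages.

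Relative to the T cell level, the receptors averaged lower in Ly86 tumors, in tests that did not pass. Ctla4 minus the T cell level was -1.37 ± 0.42 in the Ly86 group (SD, n = 4) and -0.39 ± 0.85 in the Vector group (SD, n = 3), with an exact permutation p of 0.143. Ly86 tumor 2 was lowest at -1.85 and Vector tumor 2 highest at 0.33, while Vector tumor 3, at -1.32, lay within the Ly86 range. For Cd28 and Icos the differences were -0.64 and -0.65 (exact permutation p = 0.0857 and 0.114). For Pdcd1 it was -0.26 (exact permutation p = 0.257), and every tumor was within 0.50 log2 units of the level of the CD3 genes. With a pseudocount of 0.1 the Icos difference was -0.29, beside -0.52 for Cd28. In Vector tumor 1 the receptors held only 0.08 to 0.55 TPM, where the pseudocount of 1 compresses relative levels toward 0. Without that tumor the differences were -0.25 for Cd28, -0.41 for Icos, -0.87 for Ctla4 and -0.38 for Pdcd1. If the first piece of Vector tumor 2 was left out, the values were -0.30 for Pdcd1, -1.05 for Ctla4, -0.85 for Cd28 and -0.73 for Icos. Adjusted over the 13 relative levels, p was 0.310 for Ctla4, Cd28 and Icos and 0.478 for Pdcd1.

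Relative to the macrophage level, Cd86 differed little and Icosl most. Cd86 minus the macrophage level was -2.16 ± 0.11 in the Ly86 group (SD, n = 4) and -2.04 ± 0.33 in the Vector group (SD, n = 3), a difference of -0.12 (exact permutation p = 0.543). For Cd274 and Pdcd1lg2 it was -0.08 and -0.01 (exact permutation p = 0.857 and 0.971), directions that turned under other settings. They were -0.49 and -0.36 if the first piece of Vector tumor 2 was left out, beside -0.29 for Cd86, -1.14 for Cd80 and -1.51 for Icosl. Macrophages are only some of the carriers of Cd274, which tumor cells carry too. In the second piece of Vector tumor 2, Cd274 minus the macrophage level was 2.515, beside -0.41 to 0.98 in the other libraries. Cd80 differed by -0.84 (exact permutation p = 0.143). Icosl minus the macrophage level was -2.90 ± 0.24 in the Ly86 group (SD, n = 4) and -1.78 ± 0.60 in the Vector group (SD, n = 3), a difference of -1.13. Every Ly86 tumor, from -3.25 to -2.71, lay below every Vector tumor, from -2.39 to -1.18, and the exact permutation p was 0.0286, the smallest possible, and 0.310 after adjustment over the 13 relative levels. With only the first pieces the difference was -0.72 with an exact permutation p of 0.229. Since Icosl itself differed by -0.06, this gap is nearly the size of the difference in the macrophage genes.

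**Figure D3:**
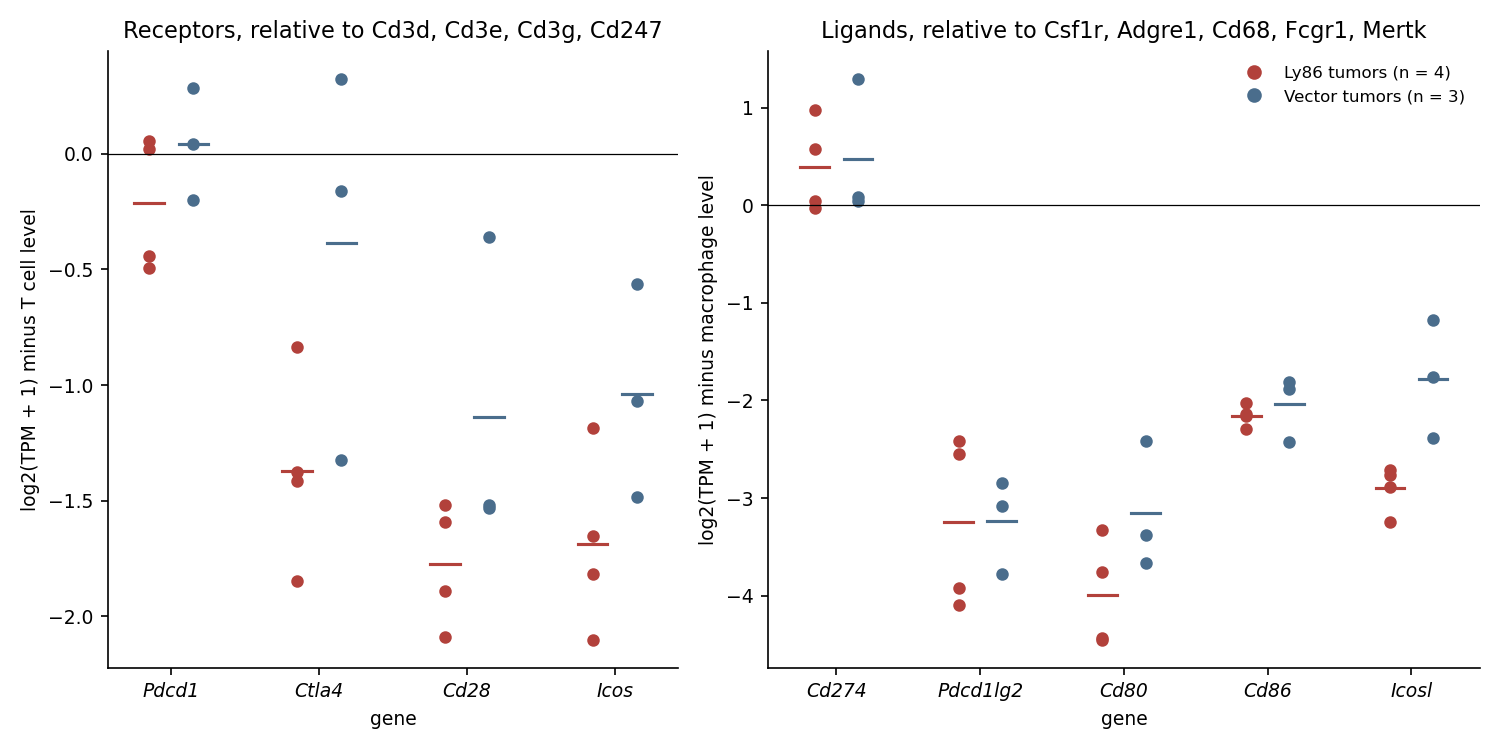
Points are tumors and short lines group means of log2(TPM + 1) minus the T cell level for receptors (left panel) or minus the macrophage level for ligands (right panel). The Ly86 tumors lie below all Vector tumors for Icosl and overlap with Vector tumors for the other 8 genes.

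Ratios between related members were compared next. Icos minus Cd28 was 0.08 ± 0.23 log2 units in the Ly86 group (SD, n = 4) and 0.10 ± 0.34 in the Vector group (SD, n = 3), and Cd274 minus Pdcd1lg2 was 3.64 ± 1.05 in the Ly86 group and 3.71 ± 0.52 in the Vector group, with exact permutation p of 0.914 and 0.886. Ctla4 minus Cd28 was 0.40 ± 0.29 in Ly86 tumors and 0.75 ± 0.96 in Vector tumors (exact permutation p = 0.686). In Vector tumor 2 it was 1.86, with 2.30 in the first piece and 1.42 in the second, above the 0.76 of the highest Ly86 tumor, Ly86 tumor 3. Both pieces of that tumor thus held more Ctla4 for their Cd28 than any other library, although their Ctla4 differed 5.77-fold. A p that misses the threshold does not show that these ratios were alike.

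The pieces of divided tumors gave the spread within a tumor. In Vector tumor 2 all 9 members were higher in the first piece, by 1.01 log2 units for Cd274 up to 2.41 for Cd86. In TPM that was 2.04-fold for Cd274, 2.50-fold for Icosl, 3.44-fold for Pdcd1lg2 and 12.5-fold for Icos. Over the same pieces the T cell level differed by 2.53 and the macrophage level by 3.45, so on the log2(TPM + 1) scale, which compresses low genes such as Icos, the macrophage level differed by more than any member did. In Vector tumor 1 the first piece was higher by up to 0.34 log2 units, for Cd86, and lower by up to 0.32, for Icosl. In Ly86 tumor 1 the receptors Pdcd1, Ctla4 and Icos differed by at most 0.19 between pieces. The first piece was lower by 0.51 for the receptor Cd28, by 1.38 for Pdcd1lg2 and by 0.99 for Cd86, with a macrophage level lower by 0.84. For Icos, Cd80, Cd86 and Icosl the gap inside Vector tumor 2 exceeded the range over all 7 tumors.

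**Figure D4:**
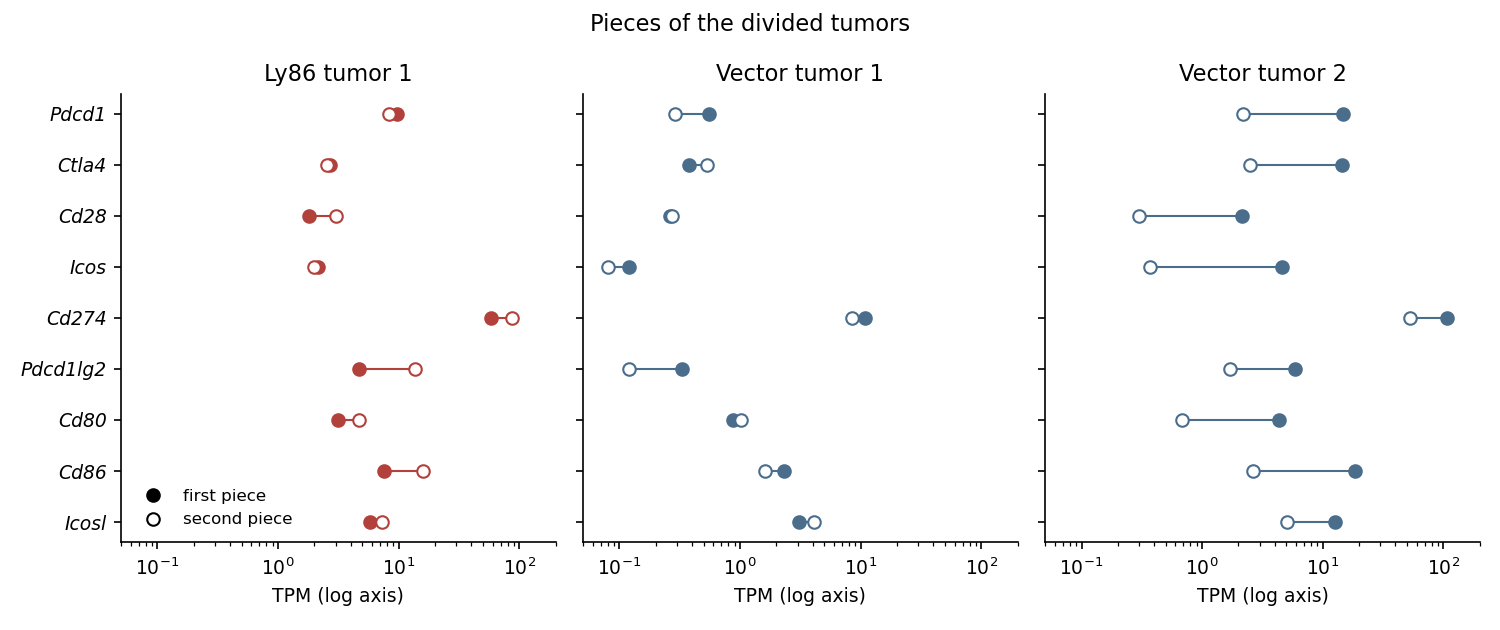
Each row joins the TPM of the first (filled) and second (open) piece of a divided tumor on a log axis. All 9 genes are higher in the first piece of Vector tumor 2, whereas the pieces of Ly86 tumor 1 lie close together for Pdcd1, Ctla4 and Icos.

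Genes around the axis were counted in lists of the pathway and of cells that carry it, and 0 genes of these lists passed limma after adjustment over all genes. An unadjusted p under 0.05 was found for 1 gene each of the interferon, signaling, wider family and transcription factor lists, for 3 dendritic cell and 5 fibroblast genes, and for 0 genes of the regulatory T cell, B cell, endothelial, keratinocyte and melanocyte lists, where 10.8% of all tested genes had one. Of 12 genes linking interferon gamma to Cd274, 10 were higher by mean in Ly86 tumors, where 43.8% of all tested genes were higher. The median log2 difference of the 12 was 0.33. Socs1, a feedback inhibitor of interferon signaling, differed by 1.54 (SE 0.39), and Irf1, a transcription factor that acts on the Cd274 gene, by 1.16 (SE 0.55), with limma adjusted p of 0.437 and 0.491. The median was 0.08 without Vector tumor 1 and 0.57 if the first piece of Vector tumor 2 was left out. Of 18 tested genes of receptor-proximal signaling, 12 were higher with a median of 0.27, and of -0.011 without Vector tumor 1. The adaptor gene Lcp2, which encodes SLP-76, differed by 1.25 (SE 0.50), and Ptpn11, which encodes SHP-2, the phosphatase that PD-1 recruits, by -0.35 (SE 0.15), with limma adjusted p of 0.453 and 0.464. Of 10 tested transcription factors known to act on Pdcd1 or Ctla4 or on exhausted T cells, 7 were higher with a median of 0.28, among them Batf at 0.32 (SE 0.14) and Tbx21 at 0.68 (SE 0.36), with limma adjusted p of 0.462 and 0.537.

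Of 6 tested genes of the wider B7 and CD28 families and their binding partners, 4 were higher, where 43.8% of all tested genes were. The median of the 6 was 0.17. Omitting Ly86 tumor 1 gave 0.012, omitting Vector tumor 1 gave 0.016 and omitting Vector tumor 2 gave 0.011. Vsir, which encodes VISTA, differed by 1.34 (SE 0.36) and Tnfrsf14, the receptor partner of BTLA, by 0.79 (SE 0.54), with limma adjusted p of 0.437 and 0.626. Btn1a1, Btn2a2, Btnl2, Ildr2 and Vtcn1 were under the filter.

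Marker genes of T cells and macrophages, cells that can carry the axis, had higher means in Ly86 tumors, as most members did. All 10 T cell genes were higher in Ly86 tumors by mean, with a median of 1.18, where 43.8% of all tested genes were higher. Of these 10 genes, 5 had an unadjusted p under 0.05 in limma, where 10.8% of all tested genes had one. The summed level of the T cell genes was 46.2 to 100.6 TPM in Ly86 libraries and 5.94 to 151 TPM in Vector libraries. Cd3g and Cd8b1 differed by 1.61 (SE 0.61) and 1.60 (SE 0.64), with limma adjusted p of 0.444 and 0.453. All 10 macrophage and monocyte genes were higher with a median of 1.27, and 8 had an unadjusted p under 0.05, beside the same shares of all genes. Summed levels of the macrophage and monocyte genes were 1629 to 3269 TPM in Ly86 libraries and 326 to 4500 TPM in Vector libraries. The lysozyme gene Lyz2 and Cd68 differed by 1.36 (SE 0.28) and 1.30 (SE 0.38), both with a limma adjusted p of 0.437. Without Vector tumor 1 the medians were 0.49 for T cells and 0.58 for macrophages. They were 1.54 and 1.87 when the first piece of Vector tumor 2 was left out. What part these cells had in the members' values was not tested beyond the relative levels above.

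Other possible carriers were less uniform. Of 7 tested dendritic cell genes 5 were higher and 2 lower, where 43.8% of all tested genes were higher. The median of the 7 was 0.35. Summed levels of the dendritic cell genes were 164 to 232 TPM in Ly86 libraries and 188 to 286 TPM in Vector libraries. The median was 0.05 with only the first pieces, 0.08 without Vector tumor 1 and 0.68 if the first piece of Vector tumor 2 was left out. Itgax, which encodes CD11c, and Clec9a, a receptor of cross-presenting dendritic cells, had the smallest unadjusted p among the tested dendritic cell genes. They differed by 0.83 (SE 0.31) and 0.86 (SE 0.32), both with a limma adjusted p of 0.441. Of 8 regulatory and follicular helper T cell genes, Foxp3, Il2ra, Ccr8 and Cxcr5 were under the filter, and the other 4 were higher, led by Bcl6 at 0.58 (SE 0.30) and Tnfrsf18 at 0.64 (SE 0.36). B cell genes were near the floor, with summed levels of 1.92 to 3.65 TPM in Ly86 libraries and 0.89 to 6.56 TPM in Vector libraries, and only Cd79b, at 0.37 (SE 0.35), passed the filter. Cd79b was at -0.00099 without Vector tumor 1 and at 0.80 if the first piece of Vector tumor 2 was left out. Of 6 endothelial genes 3 were higher with a median of 0.02, with Tek at 0.29 (SE 0.29) and Erg at -0.25 (SE 0.32). Their median was -0.34 with only the first pieces and 0.40 if the first piece of Vector tumor 2 was left out.

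All 6 fibroblast genes were higher by mean with a median of 1.46, where 43.8% of all tested genes were higher. Dcn and Lum, proteoglycans of the matrix, differed by 2.39 (SE 0.45) and 1.50 (SE 0.32). Summed levels of the fibroblast genes were 561 to 1546 TPM in Ly86 libraries and 76.5 to 2784 TPM in Vector libraries. Omitting Vector tumor 1 gave a fibroblast median of 0.90, and the median was 0.82 with only the first pieces, 0.84 with TPM of pieces averaged and 2.30 if the first piece of Vector tumor 2 was left out. The 6 keratinocyte genes had lower means in Ly86 tumors with a median of -0.60, from summed levels of 0.31 to 2345 TPM in Ly86 libraries and 0 to 640 TPM in Vector libraries, with Krt14 at -1.28 (SE 1.63) and Krt5 at -1.05 (SE 1.65). This direction rested on single libraries: the keratinocyte median was 0.43 if the first piece of Vector tumor 2 was left out, 0.11 without Vector tumor 2 and -2.26 without Ly86 tumor 1. Of 7 melanocyte genes 3 were higher with a median of -0.03, with Sox10 at -0.31 (SE 0.18) and Mlana at 0.13 (SE 0.15). No listed marker was at 0 in every library. Markers at 0 in at least 1 library numbered 3 of the 8 regulatory and follicular helper T cell genes, 3 of the 10 dendritic cell genes, 3 of the 6 B cell genes and 6 of the 6 keratinocyte genes.

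**Figure D5:**
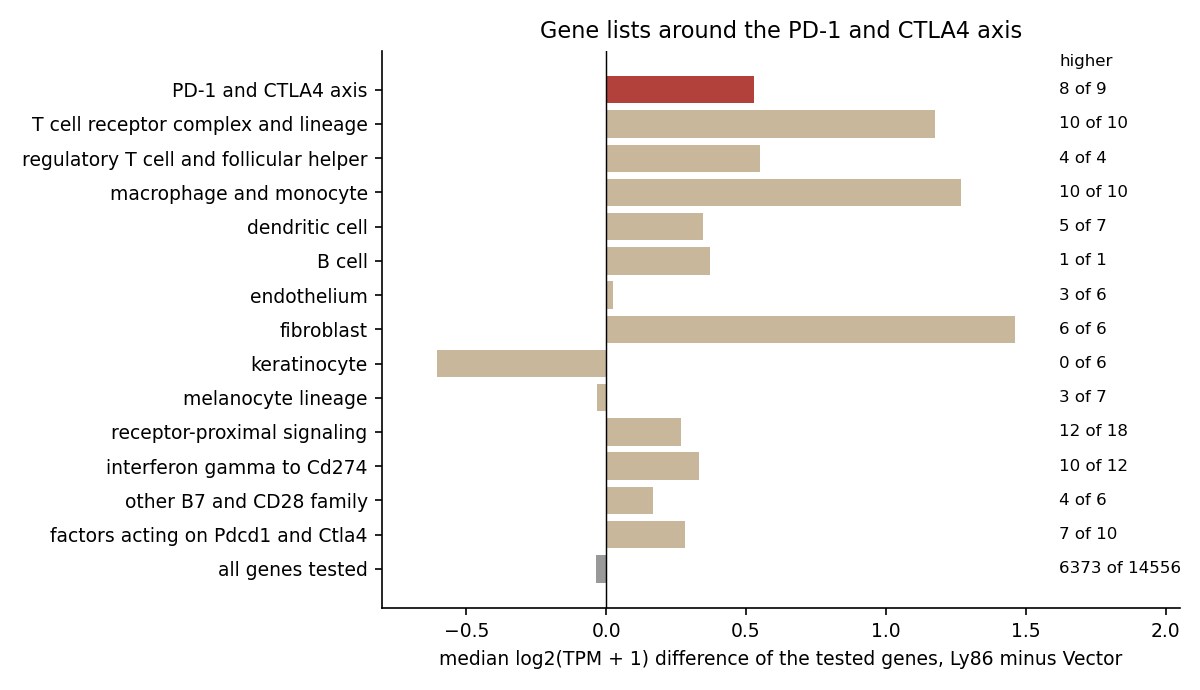
Bars give the median log2(TPM + 1) difference of the tested genes of each list, Ly86 minus Vector, with the number higher in Ly86 tumors of those tested at the right. The 9 genes of the axis, at 0.53, lie between the T cell and macrophage lists, at 1.18 and 1.27, and all tested genes, at -0.04. The fibroblast list is the highest at 1.46, and the regulatory and follicular helper T cell list lies beside the axis at 0.55.

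Genes whose profile over the 7 tumors lay nearest to a member were found by the root-mean-square difference of log2(TPM + 1), each gene centred on its own mean. Nearest to Pdcd1 were Sh2d2a and Axl (differences of 0.16 and 0.17, where the SD of Pdcd1 over tumors was 1.00), and nearest to Ctla4 were Tsc22d3 and Dusp1 (0.18 and 0.19, SD 0.74). Cd28 lay nearest to Prkcd and Stk26 (0.09 and 0.12, SD 0.46), and Icos to Vopp1 and Rassf5 (0.08 and 0.13, SD 0.50). Cd274 lay nearest to Dhx58 and Trafd1 (0.15 and 0.17, SD 1.07), Pdcd1lg2 to Clec7a and Tarm1 (0.20 and 0.21, SD 0.93), and Cd86 to Casp4 and Tlr13 (0.11 for both, SD 0.72). Cd80 lay nearest to Fzd1 and Efs (0.10 for both, SD 0.42), and Icosl to Gab2 and Arid5b (0.05 and 0.06, SD 0.33). No member was among the nearest of another.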

How the data were processed

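Expression was measured by RNA sequencing of polyadenylated RNA. The submitters' processing notes name STAR 2.7.10b, RSEM 1.3.3 and mm39. The authors deposited log2(TPM + 1) values for 27919 symbols in 10 libraries, a scale read from the values: 99.9% gave whole hundredths of TPM to within 1e-04 hundredths. Depth is unknown, since TPM does not keep it, so no counting interval or floor is given. Pearson's r between libraries over all genes was 0.929 to 0.986.

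Log2 values of pieces were averaged, leaving 4 Ly86 and 3 Vector tumors. The labels do not say that tumors came from separate mice, so the p-values reflect only how far these tumors differed from each other. The 14556 genes whose mean over tumors reached 1 TPM were tested with limma 3.58.1 in R 4.3.3 (eBayes with trend). The threshold was a Benjamini-Hochberg adjusted p under 0.05. The fit was checked on simulated data in which genes varied independently, and its power in these tumors is not known from that. The planned test had assumed TPM. Differences are Ly86 minus Vector on the log2(TPM + 1) scale, which understates changes of low genes. Relative levels used two-sided exact permutation tests over 35 assignments. The members and lists were chosen with earlier results of these data known. Named list genes are the 2 with the smallest unadjusted p. Nearest genes left out Gm and Rik names. Alternatives covered pseudocounts, filters, scaling, pieces, fits and leaving out each tumor. RefSeq promoters are from GRCm38.p6, a different build from mm39, so no coordinates were joined to the table. Figures used matplotlib 3.10.9.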

Additional observations from a re-analysis of the deposited data

How the results depend on the processing

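No member passed limma over all genes under any alternative run, except Cd86 with array weights (0.79, adjusted p = 0.047), where Ly86 passed too at 1.07, 1832 genes passed over the transcriptome and 13 of the list genes did. The number of genes passing was otherwise 0, apart from 1 with only the first pieces, 37 with only the second, 3 when the first piece of Vector tumor 2 was left out and 0 to 2 when each tumor was left out. A minimum mean of 5 TPM left 4 members, 3 of them higher. When each tumor was left out, between 6 and 9 members were higher. The 6 were of 8 tested without Ly86 tumor 1, where Cd28 fell under the filter. Over these settings, log2 differences ranged from -0.26 to 0.90 for Ctla4, -0.021 to 0.37 for Cd80 and -0.32 to 0.18 for Icosl. With only the first piece Ctla4 was -0.14 and Cd80 -0.091. Icosl was 0.12 with only the second pieces and 0.13 when the first piece of Vector tumor 2 was left out. The cause of these changes was not tested.

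Among relative levels, those near 0 turned direction. So did Ctla4 minus Cd28, from -0.35 in the main setting to 0.21 without Vector tumor 2. Cd274 minus the macrophage level was 0.21 with only the first piece and 0.18 with TPM of pieces averaged. Pdcd1lg2 minus the macrophage level was 0.59 with a pseudocount of 0.1, 0.21 with 0.5, 0.13 with only the first piece and 0.26 with TPM averaged. Cd86 minus the macrophage level was 0.014 with a pseudocount of 0.1 and 0.036 with TPM averaged. Icos minus Cd28 was 0.22 and 0.039 with pseudocounts of 0.1 and 0.5, 0.052 with only the second pieces and 0.11 when the first piece of Vector tumor 2 was left out. Cd274 minus Pdcd1lg2 was 0.073 with only the first piece. Leaving out each tumor gave -0.30 to 0.33 for Cd274 and -0.29 to 0.27 for Pdcd1lg2 minus the macrophage level, -0.63 to 0.21 for Ctla4 minus Cd28, -0.17 to 0.17 for Icos minus Cd28 and -0.49 to 0.28 for Cd274 minus Pdcd1lg2. Icosl minus the macrophage level ranged from -1.53 to -0.72 over all settings, without a change of sign.

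Tumor numbers are shared by the groups, but same-numbered tumors did not deviate together (r over genes of -0.17, -0.11 and -0.31 for numbers 1, 2 and 3). The number was therefore not used to pair tumors in the main fit, although r from so few tumors cannot exclude a pairing. With the tumor number as a replicate block 0 genes passed, and the members' log2 differences ranged from -0.05 for Icosl to 1.23 for Pdcd1lg2. Low TPM values of Cd28 and Icos, and an unknown depth, limit what can be said of these genes. A minimum of 5 TPM left no B cell gene, so that list has no value there.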
